A study of Mus musculus with 8 samples.

Results

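The genes described here are the 31 that take glucose up, break it down to pyruvate, turn pyruvate into lactate or admit it to the mitochondrion. They were taken by symbol, as the rows of the deposited count table whose Ensembl IDs map in GENCODE M21 to the listed names. All 31 were found among the 20781 genes of the table, and all 31 were among the 16565 genes that passed the filter on low counts. RNA was sequenced in bulk from cultured fibro-adipogenic progenitors (FAPs), a muscle-resident mesenchymal cell able to give rise to fat cells and fibroblasts. By their labels they were isolated from the quadriceps, gastrocnemius and tibialis anterior, all uninjured, of wild-type male mice of the C57BL/6 strain (C57BL/6J in the design text). After 48 h in culture, 4 replicates received melatonin for 24 h and 4 received vehicle for 24 h. The sources used here give neither the mouse age nor the melatonin dose, and the extraction protocol names another muscle, longissimus dorsi, which was left unresolved.

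Glycolysis splits glucose into pyruvate in the cytosol, with hexokinase and phosphofructokinase as its main points of control. Pyruvate is then either reduced to lactate by lactate dehydrogenase and exported through monocarboxylate transporters, or carried into mitochondria and oxidised to acetyl-CoA by the pyruvate dehydrogenase complex, which pyruvate dehydrogenase kinases switch off. Most steps have several isozymes encoded by separate genes, and many of these genes, Ldha, Pgk1, Slc2a1 and Pdk1 among them, are textbook targets of the hypoxia-inducible factor HIF-1. In cells that turn into adipocytes, glucose carbon is also drawn off as glycerol phosphate and acetyl-CoA for lipid synthesis.

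Library totals ran from 35584931 to 52401153 counts, so that 3 counts, the upper limit allowed by a count of 0, were worth 0.0573 to 0.0843 CPM (counts scaled to the TMM-adjusted library size). Such limits cover counting error only. Melatonin library 4 stood apart from the other melatonin libraries on the second principal component, at -54.4 against 18.5 to 25.5. The FAP marker Pdgfra was present at 465 ± 74.0 CPM with melatonin and 569.6 ± 52.2 CPM with vehicle (SD, n = 4 each). The groups overlapped and it did not pass (edgeR adjusted p = 0.084). Melatonin library 4 was lowest for it, at 354 CPM against 491 to 509 CPM in the other melatonin libraries. Over the 10 FAP markers the summed level was 1314 to 1509 CPM with melatonin and 2451 to 2533 CPM with vehicle, with 6 markers lower, Dcn (-1.38 ± 0.10 on the log2 scale), Cxcl14 (-2.29 ± 0.21) and Smoc2 (-1.47 ± 0.13) among them, and Col15a1 higher (2.19 ± 0.20). For the 7 adipocyte markers tested the sum was 1924 to 2631 CPM with melatonin and 776.7 to 873.7 CPM with vehicle, and 6 were higher, Plin1 (3.76 ± 0.15), Fabp4 (2.84 ± 0.09), Adipoq (2.10 ± 0.06) and Cfd (1.299 ± 0.11) among them. Endothelial markers summed to 58.9 to 68.6 CPM with melatonin and 36.5 to 45.9 CPM with vehicle, with 2 of 8 higher, and macrophage markers to 354.1 to 655.7 CPM with melatonin and 519.9 to 795.05 CPM with vehicle, with 2 of 10 lower and 3 higher. Schwann cell markers summed to 176.2 to 210.7 CPM with melatonin and 230.1 to 249.2 CPM with vehicle, with 1 of 4 lower and 1 higher. Muscle markers depended on melatonin library 4. The 10 myofibre markers summed to 229.5, 313, 208 and 86.9 CPM in melatonin libraries 1 to 4, against 112 to 152 CPM with vehicle, with 1 higher by edgeR and 6 without library 4. The 6 satellite cell and myoblast markers summed to 95.0, 133, 90.4 and 33.7 CPM in melatonin libraries 1 to 4, against 60.0 to 82.2 CPM with vehicle. None of these 6 passed by edgeR, DESeq2 or limma-voom or had an unadjusted p under 0.05, and 4 were higher by edgeR without melatonin library 4. In both lists melatonin libraries 1 to 3 lay above every vehicle library and library 4 below every one. Macrophage markers were also lowest in melatonin library 4 (354.1 CPM, against 602 to 656 CPM in the other melatonin libraries). The 7 pericyte and smooth muscle markers summed to 96.1 to 141.2 CPM with melatonin and 102.2 to 135.7 CPM with vehicle, with 1 lower and 2 higher. No row of the deposited count table mapped to Lep, Pax7 or Myf5, which were on these lists, so they could not be analysed. By edgeR 18.5% of all tested genes were lower and 18.1% higher, and the counts of markers stand beside these shares. The part of these markers in the results below was not tested, and in bulk RNA fewer cells of a type and less RNA per cell cannot be told apart.

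With melatonin, 20 of the 31 genes fell, 5 rose and 6 passed in neither direction, by edgeR's quasi-likelihood test with Benjamini-Hochberg adjustment over all tested genes at a threshold of 0.05. Across all tested genes 36.5% passed, 18.5% lower and 18.1% higher. Glucose uptake and glycolysis down to lactate export held 18 of the 20 genes that fell, and the genes that rose were Eno2, Ldhb, Pdk2, Pdhb and Mpc2. The median log2 fold change (melatonin over vehicle) was -0.75 over the 31 genes and 0.01 over all tested genes. The libraries of the groups did not overlap for 20 genes with melatonin below and for 7 with melatonin above, against 19.2% and 18.5% of all tested genes (37.7% in either direction). The share depended on abundance: among the 1922 genes with at least 100 CPM on average, 31.3% fell and 18.0% rose, and among all genes at least as abundant as the scarcest of the 31, 20.2% fell and 22.0% rose. Leaving out melatonin library 4 also gave 20 lower and 5 higher. Together the 31 genes took a share of all counts of 1.10, 1.25, 1.17 and 1.24% in melatonin libraries 1 to 4, against 1.91, 2.10, 1.89 and 1.89% in vehicle libraries 1 to 4, so every melatonin library lay below every vehicle library.

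**Figure D1:**
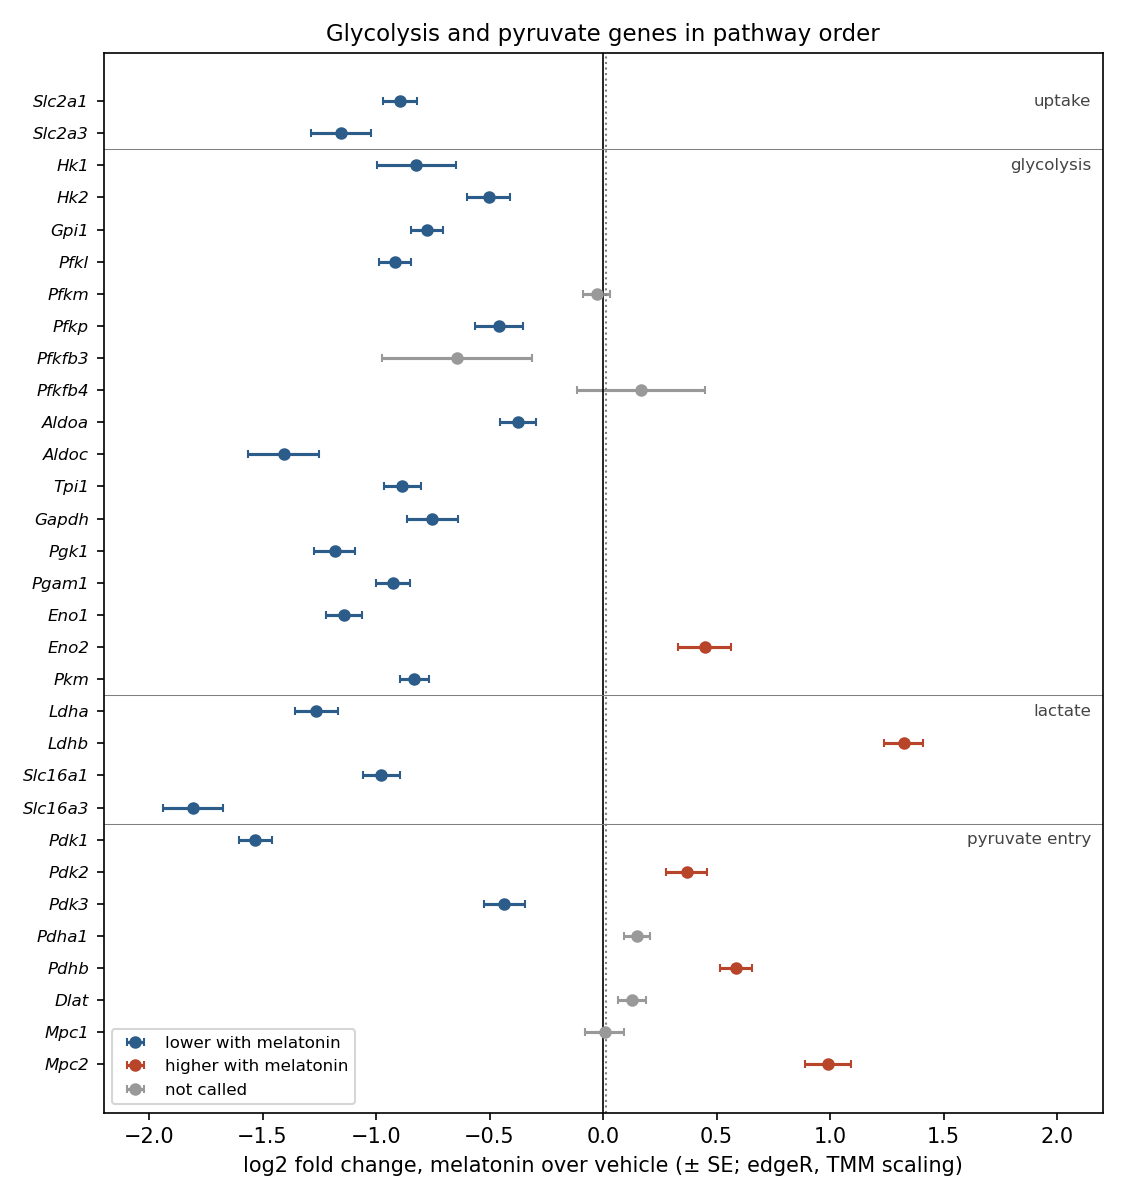
Log2 fold change of each gene (melatonin over vehicle, horizontal axis) with its standard error, in pathway order from glucose uptake at the top to entry of pyruvate into mitochondria at the bottom. Blue points fell, red points rose and grey points did not pass, and the dotted line is the median of all tested genes, 0.01; 20 points lie to the left in blue and 5 to the right in red.

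**Figure D2:**
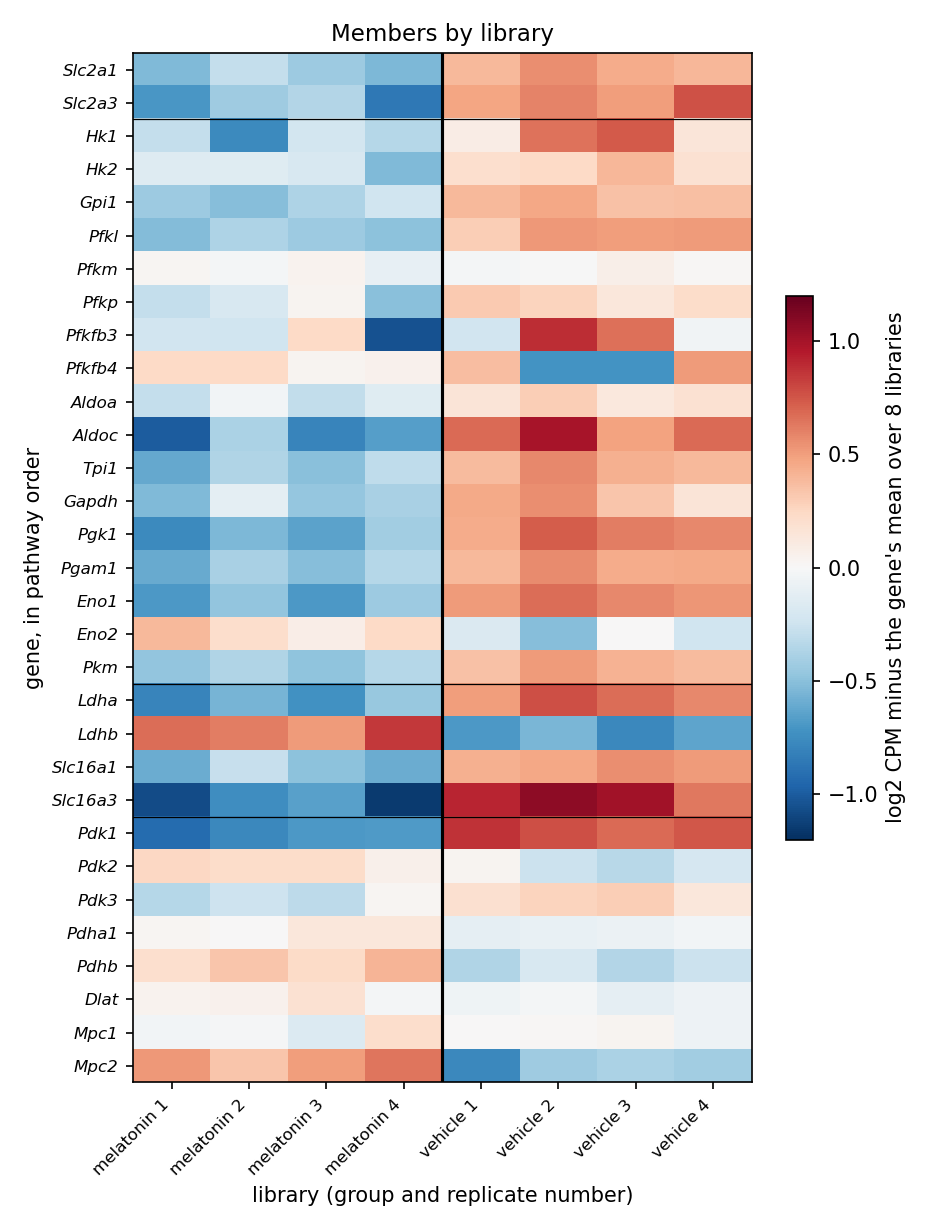
Log2 CPM of each gene in each library minus that gene's mean over the 8 libraries, melatonin libraries left of the black line and vehicle libraries right of it, with red for above the mean and blue for below. Most rows are blue on the left and red on the right, while Eno2, Ldhb, Pdk2, Pdhb and Mpc2 show the opposite. Pdha1 and Dlat, which did not pass, also had every melatonin library above every vehicle library, by smaller differences.

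Both glucose carriers on the list fell. Slc2a1, which encodes the widespread carrier GLUT1 (chr4:119108711-119137983, GRCm38), had 174, 207, 186 and 174 CPM in melatonin libraries 1 to 4, against 330.1, 373, 344 and 332 CPM in vehicle libraries 1 to 4. Its log2 fold change was -0.89 ± 0.08 (SE), 1.86-fold lower, at an edgeR adjusted p of 1.8e-05. All melatonin libraries lay below all vehicle libraries. Slc2a3, the gene of the high-affinity carrier GLUT3, was far less abundant, with 5.29, 6.36, 6.72 and 4.72 CPM with melatonin and 11.9, 12.9, 12.1 and 14.5 CPM with vehicle, and its log2 fold change was -1.15 ± 0.13 (edgeR adjusted p = 0.00011). Per kilobase of exon, Slc2a1 made up 98.5% ± 0.175 with melatonin and 98.2% ± 0.198 with vehicle of the summed level of the pair, and the test of their ratio, given further on, did not pass.

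Of the 8 genes from hexokinase to phosphofructokinase and its regulators, 5 fell and none rose, by edgeR, DESeq2 and limma-voom alike, and none rose at an unadjusted p under 0.05 either. Hexokinases trap glucose as glucose 6-phosphate. Hk1, the general form, had 219, 157, 228 and 209.8 CPM in melatonin libraries 1 to 4, against 283, 418, 443 and 294 CPM in vehicle libraries 1 to 4. Vehicle libraries 2 and 3 were higher than 1 and 4, and all of them lay above every melatonin library (log2 fold change -0.82 ± 0.17, edgeR adjusted p = 0.0053). Hk2, the insulin-regulated form of muscle and fat, was 74.6, 75.3, 73.0 and 57.7 CPM with melatonin and 95.5, 98.4, 109.7 and 94.2 CPM with vehicle, with a log2 fold change of -0.50 ± 0.09 (edgeR adjusted p = 0.0023). Gpi1, which isomerises glucose 6-phosphate to fructose 6-phosphate, had 410.5, 388, 429 and 469 CPM with melatonin and 726, 762, 706 and 709.9 CPM with vehicle and fell 1.71-fold.

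The 3 phosphofructokinase genes, which commit sugar to glycolysis, moved unequally. Pfkl, the liver-type subunit (chr10:77986947-78010083, GRCm38), was the most abundant of them per kilobase of exon and had 355, 394, 377 and 363 CPM in melatonin libraries 1 to 4, against 627, 733, 723 and 726 CPM in vehicle libraries 1 to 4. It fell 1.89-fold (log2 fold change -0.92 ± 0.07, edgeR adjusted p = 1e-05). Pfkm, the muscle-type subunit, had 66.8, 64.5, 67.7 and 61.5 CPM with melatonin and 64.8, 65.5, 69.0 and 66.3 CPM with vehicle, which overlapped, and its log2 fold change was -0.03 ± 0.06 with a 95% interval of -0.16 to 0.10. The platelet-type subunit gene Pfkp had 49.5, 53.0, 62.1 and 42.8 CPM with melatonin and 75.3, 72.9, 66.5 and 70.4 CPM with vehicle and a log2 fold change of -0.46 ± 0.11 (edgeR adjusted p = 0.0072); with libraries scaled by their totals alone it no longer passed (-0.30, adjusted p = 0.058). Of the summed level per kilobase of exon, Pfkm held 24.7% ± 1.09 with melatonin and 15.3% ± 0.779 with vehicle, and Pfkl 70.5% ± 1.38 with melatonin and 80.6% ± 1.13 with vehicle. Pfkp shares 748 exon bases with Pitrm1 on the other strand, whose counts came to 116% of those of Pfkp, and since strand use in the counting is not given, reads of one may have been counted for the other.

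Neither gene of the enzymes that set fructose 2,6-bisphosphate, the activator of phosphofructokinase, passed. Pfkfb3, the inducible form with high kinase activity, had 45.8, 45.6, 63.4 and 26.1 CPM in melatonin libraries 1 to 4, against 45.9, 99.4, 85.3 and 52.1 CPM in vehicle libraries 1 to 4 (log2 fold change -0.64 ± 0.33, 95% interval -1.41 to 0.12). Pfkfb4 had 9.68, 9.64, 8.38 and 8.48 CPM with melatonin and 10.6, 4.98, 4.98 and 11.7 CPM with vehicle (log2 fold change 0.17 ± 0.28, 95% interval -0.47 to 0.80). Vehicle libraries 2 and 3 were the highest of their group for Pfkfb3 and the lowest for Pfkfb4, so the groups overlapped for both.

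From aldolase to pyruvate kinase 8 of 9 genes fell and 1 rose. Aldoa, the main aldolase, which splits fructose 1,6-bisphosphate, had 1309, 1560.3, 1297 and 1439 CPM with melatonin and 1768, 1953, 1733 and 1811 CPM with vehicle and the smallest fall of the 8 (log2 fold change -0.37 ± 0.08, edgeR adjusted p = 0.004). Its scarce paralog Aldoc, known from brain, had 3.14, 4.82, 3.62 and 3.94 CPM with melatonin and 10.02, 12.4, 8.72 and 10.01 CPM with vehicle and fell 2.65-fold. Tpi1, which interconverts the triose phosphates, had 477, 568, 515 and 590.4 CPM with melatonin and 947, 1088, 981 and 953 CPM with vehicle and fell 1.85-fold. All 3 had groups that did not overlap.

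Gapdh, which oxidises glyceraldehyde 3-phosphate and is often used to normalise expression assays, had 946, 1256, 990.1 and 1039 CPM in melatonin libraries 1 to 4, against 1871, 2013, 1715 and 1524 CPM in vehicle libraries 1 to 4 (log2 fold change -0.75 ± 0.11, edgeR adjusted p = 0.00056). Every vehicle library exceeded every melatonin library. Pgk1, whose enzyme makes the first ATP of the pathway (chrX:106187100-106203699, GRCm38), had 727, 851, 789 and 922 CPM with melatonin and 1676, 2047, 1894 and 1842 CPM with vehicle, a 2.27-fold fall (log2 fold change -1.18 ± 0.09). Pgam1, the phosphoglycerate mutase of most tissues, had 544, 632, 583 and 654 CPM with melatonin and 1088, 1225, 1128 and 1138 CPM with vehicle and fell 1.90-fold. Processed copies carry small counts beside these genes: Gapdh-ps15 came to 4.63% of the counts of Gapdh, Pgam1-ps2 to 6.6% of those of Pgam1 and Pgk1-rs7 to 0.813% of those of Pgk1, with log2 fold changes of -0.86, -0.99 and -1.27. The sources used here do not say how reads shared with such copies were assigned, so the split between gene and copy is uncertain.

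The enolases went opposite ways. Eno1, the general enolase (chr4:150236721-150248879, GRCm38), had 1160.4, 1343, 1161 and 1385 CPM in melatonin libraries 1 to 4, against 2666, 2979, 2783 and 2705 CPM in vehicle libraries 1 to 4 and fell 2.205-fold (log2 fold change -1.14 ± 0.08, edgeR adjusted p = 6e-06). Eno2, the form best known from neurons (chr6:124760053-124769673), had 27.6, 24.4, 22.3 and 24.9 CPM in melatonin libraries 1 to 4, against 18.8, 14.8, 21.3 and 17.9 CPM in vehicle libraries 1 to 4 and rose 1.36-fold (log2 fold change 0.45 ± 0.12, edgeR adjusted p = 0.013). The lowest melatonin library for Eno2 lay just above the highest vehicle library. Eno2 nevertheless stayed a minor form: of the summed enolase level per kilobase it held 2.21% ± 0.297 with melatonin and 0.745% ± 0.129 with vehicle. A copy, Eno1b, had 2.4% of the counts of Eno1 and a log2 fold change of -1.19. Pkm, the pyruvate kinase gene whose splicing yields the M1 and M2 enzymes, had 2055, 2222, 2037 and 2249 CPM with melatonin and 3647, 4059, 3819 and 3706 CPM with vehicle and fell 1.78-fold (log2 fold change -0.83 ± 0.07, edgeR adjusted p = 1.2e-05). Counts per gene do not tell its splice forms apart.

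**Figure D3:**
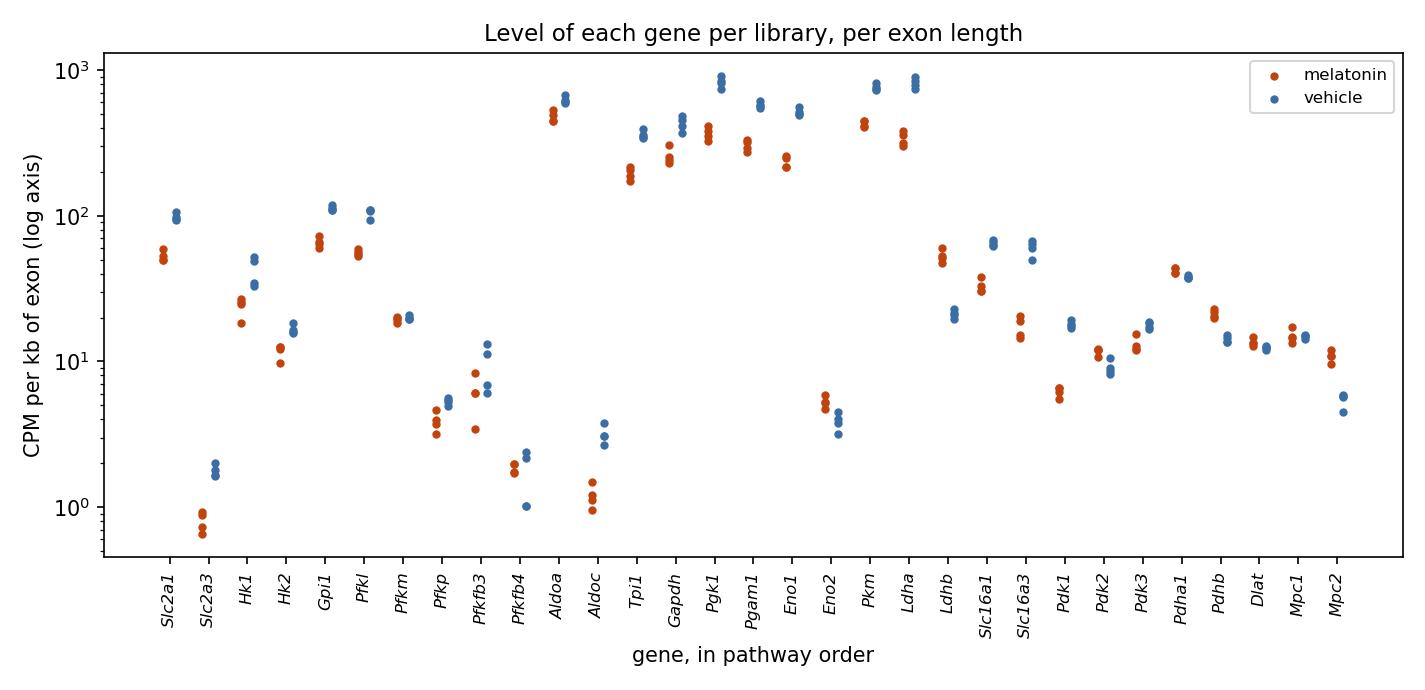
Level of each gene in each library as CPM per kilobase of exon on a log axis, genes in pathway order, melatonin in orange left of vehicle in blue. Aldoa, Pgk1, Pkm and Ldha sit near the top of the scale, and Aldoc, Slc2a3 and Pfkfb4 near the bottom, in both groups.

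The widest split between isozymes was at lactate dehydrogenase. Ldha encodes the A subunit, prevalent where pyruvate is turned into lactate (chr7:46841475-46855627, GRCm38), and had 1004, 1183, 1053 and 1266 CPM in melatonin libraries 1 to 4, against 2458, 2981, 2771 and 2601 CPM in vehicle libraries 1 to 4. It fell 2.40-fold (log2 fold change -1.26 ± 0.09, edgeR adjusted p = 7.8e-06). Ldhb encodes the B subunit, prevalent in oxidative tissues such as heart (chr6:142490249-142507957), and had 83.2, 80.1, 74.7 and 94.5 CPM in melatonin libraries 1 to 4, against 32.5, 35.9, 30.6 and 33.8 CPM in vehicle libraries 1 to 4. It rose 2.50-fold (log2 fold change 1.32 ± 0.09, edgeR adjusted p = 4.3e-06), and the lowest melatonin library was above the highest vehicle library. The ratio of Ldhb to Ldha counts was 0.0829, 0.0677, 0.0710 and 0.0747 with melatonin and 0.0132, 0.0120, 0.0111 and 0.0130 with vehicle, 6.01-fold higher with melatonin, while the summed level of both per kilobase of exon was 393 ± 40.0 with melatonin and 838 ± 68.8 with vehicle. Ldhb accounted for 13.5% ± 1.03 with melatonin and 2.53% ± 0.200 with vehicle of that sum.

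The 250 bases before a RefSeq start site of both genes (RefSeq, GRCm38.p6) are shown because they are the paralogs with the widest split. Those of Pgk1 are added as a further gene that fell, although Slc16a3, Pdk1 and Aldoc fell more. The windows are chr7:46845554-46845803, plus strand for Ldha, chr6:142507958-142508207, minus strand for Ldhb and chrX:106186850-106187099, plus strand for Pgk1. Capitals mark ACGTG or GCGTG, the core to which HIF-1 and related factors bind, on either strand (CACGT or CACGC when read on the strand shown); a CACGTG holds the core on both strands and counts as 2 overlapping matches.
Ldha: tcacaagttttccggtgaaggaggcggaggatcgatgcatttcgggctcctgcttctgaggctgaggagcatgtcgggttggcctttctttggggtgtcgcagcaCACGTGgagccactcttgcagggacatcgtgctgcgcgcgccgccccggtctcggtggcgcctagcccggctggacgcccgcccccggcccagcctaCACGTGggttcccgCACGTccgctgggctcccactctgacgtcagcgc
Ldhb: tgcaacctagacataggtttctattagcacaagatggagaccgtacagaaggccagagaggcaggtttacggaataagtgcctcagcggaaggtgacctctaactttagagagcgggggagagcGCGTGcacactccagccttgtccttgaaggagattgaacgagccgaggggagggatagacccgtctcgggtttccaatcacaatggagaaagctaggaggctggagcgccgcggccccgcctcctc
Pgk1: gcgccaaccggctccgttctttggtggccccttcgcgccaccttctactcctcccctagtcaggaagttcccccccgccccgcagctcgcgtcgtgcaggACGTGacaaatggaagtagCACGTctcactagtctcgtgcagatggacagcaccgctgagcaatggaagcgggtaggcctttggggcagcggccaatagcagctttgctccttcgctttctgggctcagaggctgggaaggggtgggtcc
The Ldha window lies inside the gene's annotated span but in no annotated exon. Bases just after its start site were not found in an annotated Ldha transcript, whereas those of a second RefSeq start site of Ldha were. The printed Ldha window held 5 matches, from 2 CACGTG and 1 further core, and the second had 1, so the window with more matches is the one shown. The Ldhb window had 1 and the Pgk1 window 2. RefSeq windows were found for 30 of the 31 genes, not for Slc2a3, and 26 of the 30 (86.7%) held at least 1 match in some window. Among the genes that fell this was 17 of 19, among those that rose 4 of 5, and among the rest 5 of 6. By comparison, the core was in some window of 59.3% of the 11537 tested genes with a window. This was 55.2% of the tested genes that fell and 62.8% of those that rose. Over the whole table used here, 41.5% of 26994 genes held it in some window, and 38.6% of 32817 single windows did. Matches are letters in a window and say nothing about binding.

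Both lactate exporters fell, to different extents. Slc16a1, the gene of the carrier MCT1, had 135, 168, 145 and 135 CPM with melatonin and 274, 281, 301 and 291 CPM with vehicle and fell 1.97-fold (log2 fold change -0.98 ± 0.08). Slc16a3, the gene of MCT4, the low-affinity exporter of glycolytic cells (chr11:120948480-120960868, GRCm38), had 80.8, 101, 108 and 77.0 CPM in melatonin libraries 1 to 4, against 321, 358, 342 and 264 CPM in vehicle libraries 1 to 4 and fell 3.498-fold (log2 fold change -1.81 ± 0.13, edgeR adjusted p = 8.5e-06), the largest fall of the 31. Slc16a1 held 65.7% ± 2.74 with melatonin and 51.9% ± 3.62 with vehicle of the pair's summed level per kilobase of exon. The membrane chaperones of these carriers, not on the list of 31, moved apart: Bsg (basigin) had 1029.8 ± 68.6 CPM with melatonin and 1454 ± 90.4 CPM with vehicle and fell, and Emb (embigin) had 922 ± 46.1 CPM with melatonin and 576 ± 21.6 CPM with vehicle and rose (SD, n = 4 each; log2 fold changes -0.50 ± 0.07 and 0.68 ± 0.06, edgeR adjusted p = 0.00051 and 2.8e-05).

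The 8 genes of pyruvate entry did not move as a block: 2 fell, 3 rose and 3 did not pass, with a median log2 fold change of 0.14. The kinases that inactivate pyruvate dehydrogenase divided by isozyme. Pdk1, the hypoxia-induced kinase (chr2:71873224-71903858, GRCm38), had 42.9, 47.9, 50.7 and 50.9 CPM in melatonin libraries 1 to 4, against 149, 139.8, 131 and 137 CPM in vehicle libraries 1 to 4, a 2.89-fold fall (log2 fold change -1.53 ± 0.07, edgeR adjusted p = 7.5e-07). Pdk2, the most widely expressed kinase (chr11:95026258-95041354), had 38.5, 37.8, 37.9 and 34.0 CPM in melatonin libraries 1 to 4, against 33.3, 27.3, 25.8 and 28.3 CPM in vehicle libraries 1 to 4 and rose 1.29-fold (log2 fold change 0.37 ± 0.09, edgeR adjusted p = 0.01). Pdk3 had 30.7, 32.8, 31.3 and 39.5 CPM with melatonin and 44.4, 46.7, 47.8 and 42.7 CPM with vehicle and fell (log2 fold change -0.44 ± 0.09, edgeR adjusted p = 0.0041). Of the summed kinase level per kilobase, Pdk1 held 19.9% ± 1.07 with melatonin and 40.0% ± 0.998 with vehicle, and Pdk2 37.9% ± 3.499 with melatonin and 20.3% ± 1.68 with vehicle. The ratio of Pdk1 to Pdk2 counts was 1.115, 1.27, 1.34 and 1.496 with melatonin and 4.46, 5.13, 5.08 and 4.83 with vehicle. Pdk4, the starvation-responsive kinase, which is not on the list, had 10.9 ± 1.16 CPM with melatonin and 12.5 ± 1.72 CPM with vehicle (edgeR adjusted p = 0.26).

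The windows before the start sites of the kinases that went opposite ways were chr2:71872974-71873223, plus strand for Pdk1 and chr11:95041372-95041621, minus strand for Pdk2 (RefSeq, GRCm38.p6), with the same letters in capitals. Both of these windows carry the core.
Pdk1: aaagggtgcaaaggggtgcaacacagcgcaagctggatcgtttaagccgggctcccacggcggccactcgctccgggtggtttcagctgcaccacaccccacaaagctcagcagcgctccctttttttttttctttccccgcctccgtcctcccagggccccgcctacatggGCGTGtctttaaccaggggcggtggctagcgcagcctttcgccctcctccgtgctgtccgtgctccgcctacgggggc
Pdk2: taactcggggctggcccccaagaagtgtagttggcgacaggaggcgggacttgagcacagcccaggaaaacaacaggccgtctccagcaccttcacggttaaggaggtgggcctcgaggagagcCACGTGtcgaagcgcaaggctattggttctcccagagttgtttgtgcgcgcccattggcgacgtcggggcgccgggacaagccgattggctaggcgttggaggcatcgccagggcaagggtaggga
The Pdk1 window had 1 match and the Pdk2 window 2, from 1 CACGTG. A second RefSeq window of Pdk2 had none, as had a second window of Pdk1, so for both genes the window with more matches is shown.

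Within the complex itself, Pdhb, the gene of the E1 beta subunit, had 77.1, 84.4, 78.5 and 89.0 CPM in melatonin libraries 1 to 4, against 52.2, 58.6, 52.6 and 55.9 CPM in vehicle libraries 1 to 4 and rose (log2 fold change 0.58 ± 0.07, edgeR adjusted p = 0.00016). Pdha1, the X-linked gene of the E1 alpha subunit that the kinases phosphorylate, had 152, 149.96, 164 and 165 CPM with melatonin and 139, 141, 143 and 146 CPM with vehicle, and Dlat, the gene of the E2 core, had 65.1, 65.6, 71.7 and 62.5 CPM with melatonin and 61.1, 62.2, 58.7 and 60.6 CPM with vehicle. Neither passed (edgeR adjusted p = 0.067 and 0.14), although in both every melatonin library was above every vehicle library. Their log2 fold changes were 0.15 ± 0.06 and 0.13 ± 0.06, and both passed when libraries were scaled by their totals alone (adjusted p = 0.0023 and 0.0084). Of 10 other genes of the complex, its kinases and phosphatases and the carriers' partners, 1 fell and 3 rose, beside 18.5% and 18.1% of all tested genes. With scaling by totals alone 5 rose, and with limma-voom 2. The gene that fell was Bsg and 1 that rose was Emb, both partners of the lactate carriers given above. The others that rose were the phosphatase genes Pdp1 and Pdp2, whose products reactivate the complex. Their log2 fold changes were 0.38 ± 0.08 and 0.29 ± 0.10 (edgeR adjusted p = 0.0058 and 0.049). Pdp2 lay at the threshold and passed in 5 of 16 alternative fits (adjusted p = 0.0065 to 0.13 over them). Dld, the E3 subunit gene, and Pdhx, the E3-binding protein gene, did not pass (0.15 ± 0.06 and 0.14 ± 0.10, edgeR adjusted p = 0.1 and 0.33).

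The mitochondrial pyruvate carrier is built from the products of Mpc1 and Mpc2. Mpc2 (chr1:165460637-165481214, GRCm38) had 80.5, 70.7, 79.6 and 87.7 CPM in melatonin libraries 1 to 4, against 32.9, 41.8, 43.2 and 42.2 CPM in vehicle libraries 1 to 4 and rose 1.99-fold (log2 fold change 0.99 ± 0.10, edgeR adjusted p = 5.6e-05). Mpc1 had 30.3, 30.6, 27.7 and 35.7 CPM with melatonin and 31.1, 31.3, 31.7 and 29.6 CPM with vehicle, with a log2 fold change of 0.01 ± 0.09 and a 95% interval of -0.18 to 0.20. Mpc2 made up 42.1% ± 2.32 with melatonin and 26.8% ± 2.55 with vehicle of the summed level of both per kilobase of exon. In CPM, without division by length, Mpc2 was above Mpc1 in every library. Which gene leads thus depends on the exon unions, 7344 bases for Mpc2 and 2082 for Mpc1. Exon unions for these genes differ in length, so shares within a family are approximate, whereas changes in the ratios do not depend on length.

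For 13 pairs of genes within a step, the log2 ratio of their counts was compared between groups by an exact two-sided permutation test over the 4 and 4 libraries, adjusted over the 13 pairs. The smallest p this design can give is 0.0286, and 9 pairs reached it, each with groups that did not overlap (adjusted p = 0.0413). For Ldhb to Ldha, Eno2 to Eno1, Pdk1 to Pdk2 and Pdk3 to Pdk2 this was fixed beforehand. Their genes had already separated in opposite directions, so the test adds nothing to the single-gene results. The adjusted p of the other pairs also depends on how many pairs reached the smallest p. The fixed pairs are part of that number. The passing of the other pairs therefore rests partly on them and is no support by itself. On the log2 scale the ratio of Ldhb to Ldha was higher with melatonin by 2.59, Eno2 to Eno1 by 1.60, Mpc2 to Mpc1 by 0.99, Pfkm to Pfkl by 0.88, Slc16a1 to Slc16a3 by 0.83 and Pdhb to Pdha1 by 0.43. It changed by -1.91 for Pdk1 to Pdk2, by -1.03 for Aldoc to Aldoa and by -0.82 for Pdk3 to Pdk2. The pairs Pfkp to Pfkl (adjusted p = 0.0743), Slc2a3 to Slc2a1 (adjusted p = 0.135), Hk2 to Hk1 (adjusted p = 0.217) and Pfkfb4 to Pfkfb3 (adjusted p = 0.314) did not pass this permutation test. A ratio within a library is free of the scaling between libraries.

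**Figure D4:**
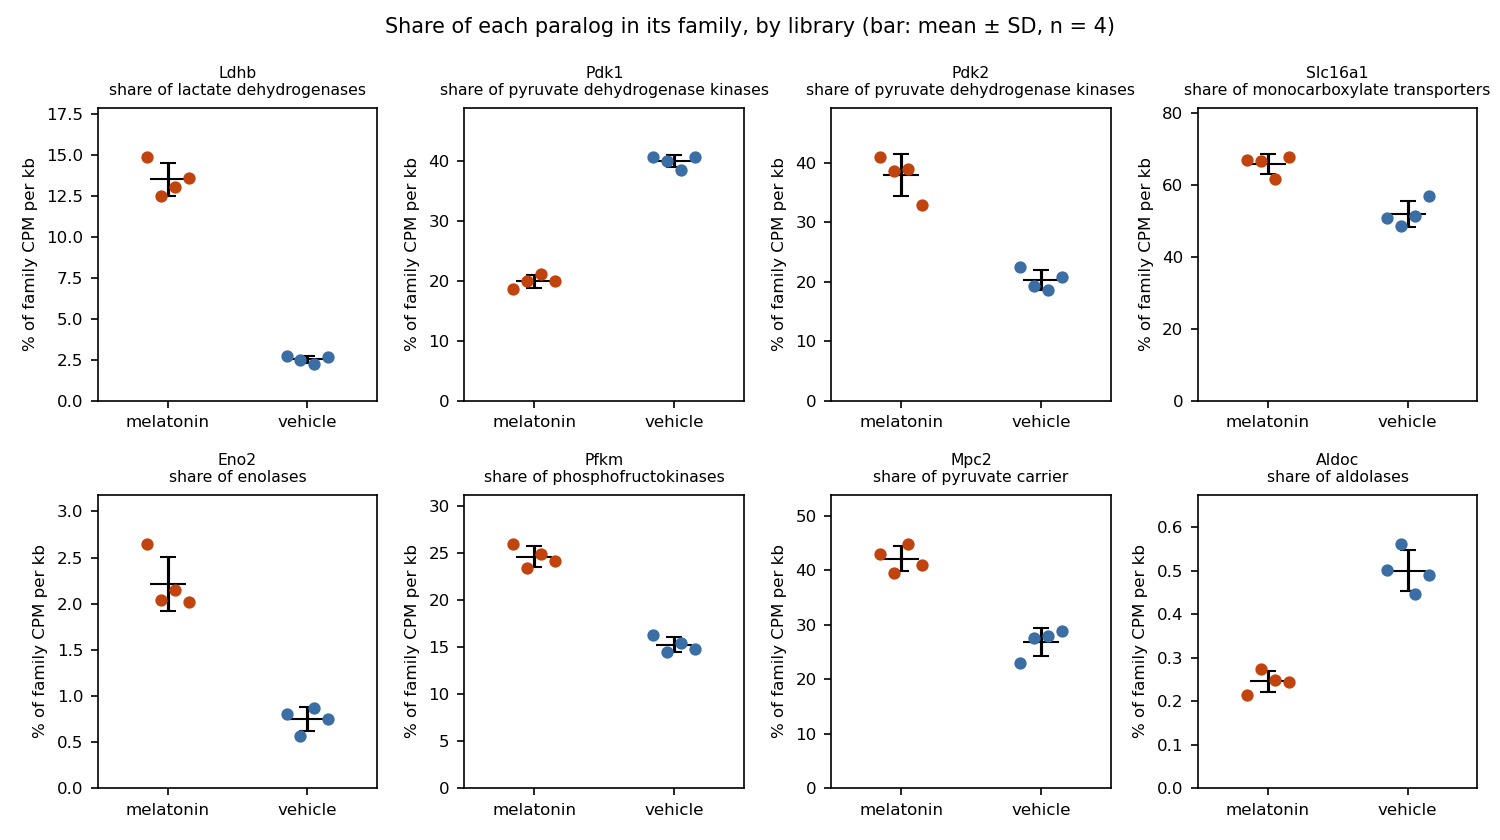
Share of 8 genes in the summed level of their family (CPM per kilobase of exon, percent), one point per library, melatonin left and vehicle right, with mean and SD (n = 4). The melatonin points of Ldhb, Pdk2, Slc16a1, Eno2, Pfkm and Mpc2 all lie above the vehicle points, and those of Pdk1 and Aldoc below.

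Other genes of these pathways, outside the 31, were counted in the same fit, in which 18.5% of all tested genes fell and 18.1% rose. Of 12 other glycolysis isozymes and regulators tested, 3 rose and none fell by edgeR, while 1 was lower at an unadjusted p under 0.05, 1 by DESeq2 and 1 by limma-voom. With scaling by totals alone 6 rose, and leaving out single libraries gave up to 2 lower, the most without melatonin library 2. Those that rose were Pgam2, the muscle phosphoglycerate mutase (log2 fold change 0.83 ± 0.12), Pfkfb1 (0.78 ± 0.19) and Galm, a mutarotase (0.48 ± 0.08). Among 7 other glucose and fructose transporter genes 2 fell and 2 rose. Slc2a4, the gene of the insulin-responsive carrier GLUT4, had 7.24, 6.19, 7.97 and 4.69 CPM with melatonin and 0.744, 0.903, 1.118 and 0.922 CPM with vehicle and rose 7.08-fold, Slc2a8 rose by a log2 fold change of 0.45 ± 0.10, and Slc2a6 and Slc2a10 fell (-2.08 ± 0.14 and -0.79 ± 0.07).

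Of 14 genes on side branches of pyruvate and glycerol metabolism 3 fell and 7 rose, and with scaling by totals alone 1 fell. Gpd1, which diverts dihydroxyacetone phosphate to glycerol phosphate, had 28.7, 26.7, 31.2 and 21.2 CPM with melatonin and 2.17, 2.29, 2.02 and 2.97 CPM with vehicle. Its relative Gpd1l rose by a log2 fold change of 0.66 ± 0.09. Pc, the gene of pyruvate carboxylase, had 238 ± 35.6 CPM with melatonin and 179 ± 10.9 CPM with vehicle (SD, n = 4 each; log2 fold change 0.41 ± 0.11, edgeR adjusted p = 0.013), with overlapping groups. The mitochondrial aspartate aminotransferase gene Got2 rose (0.36 ± 0.06) and the alanine aminotransferase gene Gpt2 fell (-0.42 ± 0.07). The other genes that fell, named after their values were seen, were the malic enzyme genes Me2 (-0.33 ± 0.08) and Me1 (-0.21 ± 0.05). Paralogs of these genes went the other way. The remaining genes that rose, likewise named after their values were seen, were the alanine aminotransferase gene Gpt (0.64 ± 0.13), the malic enzyme gene Me3 (0.70 ± 0.21, overlapping groups) and Ldhd (0.99 ± 0.27).

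In glycogen metabolism 4 of 16 genes fell and 5 rose, with 3 higher when melatonin library 1 or vehicle library 3 was left out. The genes that fell were Pygl, a glycogen phosphorylase (log2 fold change -1.58 ± 0.13), Gbe1, the branching enzyme (-0.96 ± 0.11), Gys1, the muscle-type glycogen synthase (-0.91 ± 0.09), and Pgm1, which interconverts glucose phosphates (-0.72 ± 0.06). Those that rose, named here after their values were seen, were Gyg, the glycogenin that primes glycogen (1.02 ± 0.13, edgeR adjusted p = 0.00029), Pygb, the brain-type phosphorylase (0.32 ± 0.07), Pgm2l1 (0.42 ± 0.11), Phkg2, a phosphorylase kinase subunit (0.29 ± 0.09), and Pgm2 (0.21 ± 0.07, edgeR adjusted p = 0.046).

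Among 18 hypoxia targets outside glycolysis 14 fell by edgeR, DESeq2 and limma-voom, none rose by any of these tools or at an unadjusted p under 0.05, and the list had a median log2 fold change of -1.13 against 0.01 over all tested genes. Egln3, an oxygen-sensing prolyl hydroxylase, had 9.24, 12.7, 10.3 and 10.9 CPM with melatonin and 53.7, 63.7, 58.8 and 53.8 CPM with vehicle. Further members that fell were Ero1l, an oxidoreductase of the endoplasmic reticulum (log2 fold change -1.66 ± 0.08), P4ha2, which hydroxylates collagen (-1.37 ± 0.07), and Adm, which encodes adrenomedullin (-1.27 ± 0.07). Of 12 regulators of glycolysis genes 3 fell and 4 rose. The HIF-1 alpha gene Hif1a had 273, 326, 326 and 282 CPM in melatonin libraries 1 to 4, against 553, 476, 466 and 507 CPM in vehicle libraries 1 to 4 and fell 1.66-fold (log2 fold change -0.73 ± 0.09, edgeR adjusted p = 0.00013). Myc fell as well (-0.47 ± 0.14, edgeR adjusted p = 0.022). The carbohydrate response factor gene Mlxipl, the mitochondrial coactivator gene Ppargc1a and Foxo1 rose (3.52 ± 0.31, 1.54 ± 0.22 and 0.52 ± 0.08). Named after their values were seen, Epas1, the HIF-2 alpha gene, fell (-0.60 ± 0.10) and Esrra rose (0.26 ± 0.08). Transcript levels do not measure the amount or activity of these factors.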

How the data were processed

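The authors deposited a table of counts, whole numbers per Ensembl gene with no normalization, for the 8 libraries. Columns prefixed con were read as vehicle, the only other group. Genome build mm10 is named in the submitters' processing notes, along with HISAT2 2.0, StringTie 1.3.3b, Trimmomatic 0.36, FastQC 0.11.2, DESeq2 1.12.4 and bedtools 2.26.0. Which program counted the reads, with which annotation and strand setting, is not given in the sources used. Every gene in the table has at least 11 counts in all. Symbols and positions are from GENCODE M21 (GRCm38, the assembly of mm10), which held 20720 of the 20781 IDs; 61 were not matched.

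All genes were fitted with edgeR 4.0.16 (filterByExpr, TMM, robust quasi-likelihood F-test, group as the only term). Benjamini-Hochberg adjustment ran over all 16565 tested genes, and 0.05 was the threshold. Standard errors are the log2 fold change over the square root of F. CPM uses TMM-scaled library sizes, and levels are compared between genes per kilobase of exon union. Paralog ratios had 0.5 added to counts. The alternatives tried were limma-voom (limma 3.58.1), DESeq2 1.42.0, other scalings and filters, a replicate block and each library left out. The steps were tested on simulated data. Replicates are those of the labels, which do not say that they came from separate animals, so p-values measure the spread between these libraries, which may be technical; all pairs within a group differed by more than sampling noise (chi-square 20.7 to 65.1 per gene). The members, gene lists and tests were chosen with earlier results of these data known. All 31 members are described. Of each other pathway list and of the FAP and adipocyte markers, genes are named that passed with at least 10 counts on average, at most 4 per list by smallest p, plus Pdk4, Pdp1, Pdhx, Dld, Slc2a4, Pc, Pgm1, Gpd1, Hif1a, Myc and Mlxipl; genes named after their values were seen are marked so. Pdgfra was added as a check of the labelled cell type, and the other marker lists are given as sums and counts.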

Additional observations from a re-analysis of the deposited data

Results flagged for a closer look

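For each of the 31 genes, each group of 4 libraries was searched for a library far from the other 3. Of 62 groups 4 stood out by Dixon's criterion for 4 values (gap to the nearest library over the whole range), where chance gives about 1 in 20. Hk2 was 57.7 CPM in melatonin library 4, against 73.0 to 75.3 CPM in the other melatonin libraries. Pdk2 was 34.0 CPM in melatonin library 4, against 37.8 to 38.5 CPM in the others. Pfkl was 627 CPM in vehicle library 1, against 723 to 733 CPM in the other vehicle libraries. Mpc2 was 32.9 CPM in vehicle library 1, against 41.8 to 43.2 CPM in the others.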

How the results depend on the processing

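Across 16 alternative fits, 20 of the 31 genes were lower and 5 higher in all but one: scaling by library totals alone gave 19 and 7. That scaling also called 5099 genes higher and 2237 lower over the whole table, against 2992 and 3062, and moved the all-gene median (log2) to 0.17, against 0.01. Under it Pfkp lost its call (-0.30, adjusted p = 0.058), and Pdha1 (0.31) and Dlat (0.29) gained one. Of the 31, the only genes whose log2 fold change turned sign had not passed: Pfkm (0.13 with library totals, and -0.041 to 0.0075 with 1 library left out), Pfkfb4 (-0.0051 to 0.40 with 1 library left out) and Mpc1 (-0.0017 with RLE factors, -0.0044 with a stricter filter, -0.0026 with DESeq2, -0.0047 with limma-voom, and -0.058 to 0.073 with 1 library left out). The cause was not tested. Leaving out 1 library gave 2671 to 3282 lower and 2403 to 3284 higher genes. The replicate block kept 20 lower and 5 higher, with 2649 lower and 2293 higher over all genes and 3 glycogen genes higher against 5. No pairing by number was visible: same-numbered libraries correlated by -0.046 to 0.035 and none matched its own number best. Such values cannot exclude that same-numbered libraries shared an animal or a day, which the labels do not state. With 5 added to counts, 9 ratios again passed, with the limits of this test given above. Ratios without 1 library were given no call. Counting error is largest for the scarcest genes, Slc2a3, Aldoc and Pfkfb4.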

Other observations

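Several genes are in common use as references for expression assays. They were chosen here after their values were seen. Gapdh and Pgk1, members of the pathway, were lower with melatonin (log2 fold changes of -0.75 and -1.18), as was B2m (-0.56), and Sdha was higher (0.24; edgeR adjusted p = 0.011). Rplp0 (-0.04), Hprt (-0.06), Tbp (0.09), Ppia (0.11), Ywhaz (-0.20) and Actb (-0.25) did not pass. Of the 16565 tested genes, 14588 (88.1%) had a log2 fold change above that of Gapdh. Relative to Gapdh, the median tested gene was higher with melatonin by 0.77 on the log2 scale.

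Within the vehicle group, libraries 2 and 3 differed from libraries 1 and 4 in several of the 31 genes, 3 genes of the upper pathway among them. The split was noticed in the values and not tested. Hk1 was 418 and 443 CPM in libraries 2 and 3, and 283 and 294 CPM in libraries 1 and 4. Pfkfb3 was 99.4 and 85.3 CPM in libraries 2 and 3, and 45.9 and 52.1 CPM in libraries 1 and 4. Pfkfb4 was 4.98 CPM in both libraries 2 and 3, and 10.6 and 11.7 CPM in libraries 1 and 4. Smaller differences ran further along the pathway. Ldha was 2981 and 2771 CPM in libraries 2 and 3, and 2458 and 2601 CPM in libraries 1 and 4. Slc2a1 and Pgk1 were likewise higher in libraries 2 and 3, Pdk2 was lower there, and Gpi1 did not follow the split. The summed macrophage markers were 795.05 and 669 CPM in libraries 2 and 3, and 519.9 and 573 CPM in libraries 1 and 4. Their part in the split was not tested.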
